A study of Rattus norvegicus with 6 samples.

Results

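The genes described here belong to the interferon response and to antigen presentation by MHC class I. Chosen by name, they were B2m, Tap1, Tap2, Tapbp, Stat2, Irf1, Irf7, Isg15 and Mx1. For 8 of these 9 genes the array carried a probeset with that gene symbol alone, out of 12603 genes measured, and Mx1 had none in the table of probes used here. The cells were rat INS-1 insulinoma cells, a model of the pancreatic β-cell, of 1 clone that makes a misfolding proinsulin, insulin 2 C96Y (the Akita change) joined to GFP, once doxycycline (Dox) is added. All groups carried this gene and were grown under G418 and hygromycin. Cells were left untreated, received Dox, or received Dox together with 5 μM 4μ8c (Dox+4μ8c), a small molecule that blocks the endoribonuclease activity of the endoplasmic reticulum (ER) stress sensor IRE1. Treatment lasted 48 h, with Dox at 4 μg/ml in the sample labels and at a lower dose in the study's methods. Each of 2 independent experiments gave 1 array per group, 6 arrays in all. An effect of Dox itself cannot be told apart from one of the mutant proinsulin.

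MHC class I molecules show peptides from inside the cell to CD8+ T cells. Peptides cut by the proteasome are pumped into the ER lumen by the TAP1-TAP2 transporter, tapasin (Tapbp) bridges the transporter to empty class I heavy chains, and β2-microglobulin (B2m) is the light chain without which a class I molecule does not reach the surface. Interferons raise most of these genes through STAT and IRF transcription factors, and high class I on β-cells is a known feature of islets in type 1 diabetes. Misfolded proinsulin loads the same compartment in which class I molecules are assembled. The comparisons ask how these genes respond to mutant proinsulin and to the IRE1 inhibitor.

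The sequence around the start sites was searched for motifs known from interferon-induced genes. The interferon-stimulated response element (ISRE) was searched, as GAAA and GAAA with any 2 bases between them, on both strands of the RefSeq promoter windows of assembly GRCr8, which run from 250 bases before to 50 bases after a start site. It was found in 5 of the 7 members that had a window, compared with 3.92% of all 33469 windows. The 5 members are shown in windows of 30 bases in the direction of the gene, with the ISRE in capitals (reverse complemented in Tap1 and Irf7), because they show the letters that these 5 genes share. Tap1, Tap2 and Tapbp lie near each other in the MHC.
B2m, chr3:129549170-129549199, plus strand: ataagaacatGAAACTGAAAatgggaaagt
Tap1, chr20:4668645-4668674, minus strand: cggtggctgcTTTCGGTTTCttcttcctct
Tap2, chr20:4652318-4652347, minus strand: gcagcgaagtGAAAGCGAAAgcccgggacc
Tapbp, chr20:4967878-4967907, minus strand: gagggaaaatGAAAGTGAAAggaaacagac
Irf7, chr1:205800073-205800102, minus strand: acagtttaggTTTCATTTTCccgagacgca
Tapbp held another ISRE that overlaps the one in capitals. The window of Irf1 held no ISRE but a GAS element (the interferon-γ activated site, searched as TTCNNNGAA), which stood in 8.87% of all windows. It is shown as the other kind of interferon site among these genes.
Irf1, chr10:38417783-38417812, plus strand: acagcctgatTTCCCCGAAatgatgaggcg
Stat2 had neither motif and Isg15 had no window. A match is a description of the letters and not evidence that a factor bound there.

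The deposited values are log2 signals made by the authors with RMA. They are centred for each probeset within an experiment, so that levels are lost and the identity of the cells cannot be checked from marker levels. Only differences between arrays of the same experiment can be read. The 2 experiments were not centred alike. The median of the 3 arrays was 0 in 100% of probesets of experiment 1 and in 0.836% of experiment 2. Differences are given on the log2 scale, where 0.58 is 1.5 fold, and tests are limma with the experiment as a block, adjusted over all 12603 genes. In experiment 1, 25.46% of probesets were exactly 0 on all 3 arrays and another 31.73% on 2 of the 3, compared with 0.42% for 2 or more arrays in experiment 2. How these ties arose is not given in the sources used here, and a difference of exactly 0 in experiment 1 was not read as a measured lack of change. Dox replicate 2 stood apart, with an SD over all probesets of 0.176 against 0.05 to 0.12 on the other arrays. These SDs compare only within an experiment, and the other arrays of experiment 2 were at 0.11 (untreated) and 0.09 (Dox+4μ8c). The difference between Dox and untreated had an SD over all genes of 0.16 in experiment 1 and 0.21 in experiment 2. For the 4 bacterial control RNAs added to each sample, the signal at the 5′ end relative to the 3′ end was compared with untreated. It departed most on Dox replicate 2, by -0.65, where the other treated arrays lay from -0.26 to 0.10. Leukocyte and stromal markers did not move with the groups past the test. Of the 20 listed, 10 were measured and 0 passed in any comparison. At an unadjusted p under 0.05 there were 1 (Dox against untreated), 0 (Dox+4μ8c against untreated) and 0 (Dox+4μ8c against Dox). Of all 12603 genes 2476, 1943 and 1415 were. The mean difference of the 10 from untreated lay between -0.03 and 0.08 on the 4 treated arrays. Single markers moved more on Dox replicate 2, from -0.53 for Kdr to 0.45 for Cd68. The mean differences with Dox were -0.31 for Kdr (adjusted p = 0.258), 0.24 for Cd8a (adjusted p = 0.218) and 0.08 for Cd4 (adjusted p = 0.605).

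B2m was the 1 member whose difference between Dox-treated and untreated cells passed the test. Its centred log2 values were -0.21 in untreated cells, 0.03 with Dox and 0.00 with Dox+4μ8c in experiment 1, and -0.08, 0.17 and 0.08 in experiment 2. In both experiments the untreated array was the lowest and the Dox array the highest. B2m was higher with Dox by 0.24 (SE 0.05, 95% CI 0.13 to 0.36, adjusted p = 0.0375), or 1.18 fold, with differences of 0.24 and 0.25 in experiments 1 and 2. Over all genes 4.42% were called higher with Dox and 2.01% lower. The 2 probesets of B2m were close to each other, at 0.23 and 0.26, but neither passed when probesets were tested on their own (adjusted p = 0.121 and 0.103). The call was also lost in the fit without the replicate block (adjusted p = 0.123). It was lost as well when any array other than Dox replicate 1 was left out. The adjusted p was then 0.161 and 0.183 without untreated replicates 1 and 2, 0.117 without Dox replicate 2 and 0.101 without either Dox+4μ8c array.

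With the IRE1 inhibitor added, B2m stayed between the values of the other groups. It differed from untreated by 0.18 (95% CI 0.07 to 0.30, adjusted p = 0.130) and from Dox alone by -0.06 (95% CI -0.18 to 0.06, adjusted p = 0.679). In that order of the 3 conditions, only the outer pair, untreated and Dox, differed past the test.

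Tap1 and Tap2 encode both chains of the peptide transporter and are neighbours in the class II region of the rat MHC. The centred log2 values of Tap1 were 0.02, 0.00 and -0.06 (untreated, Dox, Dox+4μ8c) in experiment 1 and 0.03, 0.07 and -0.03 in experiment 2. Its Dox and untreated arrays lay close together, in opposite order in the 2 experiments, and its Dox+4μ8c array was the lowest in each. The mean difference of Tap1 between Dox and untreated was 0.01 (95% CI -0.10 to 0.12, adjusted p = 0.939). Adding 4μ8c to Dox gave a difference of -0.08 (95% CI -0.19 to 0.04, adjusted p = 0.606).

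Tap2 had values of exactly 0 on all 3 arrays of experiment 1, and of -0.02, 0.29 and 0.02 in experiment 2. Thus every difference of Tap2 came from experiment 2, where Dox replicate 2, the array that stood apart, was high and the other arrays were close together. With Dox its mean difference from untreated was 0.15 (95% CI -0.04 to 0.35, adjusted p = 0.363), and with 4μ8c added to Dox it was -0.14 (95% CI -0.33 to 0.06, adjusted p = 0.594). Both differences passed the test when Dox replicate 1 was left out and Dox replicate 2 was the only Dox array, at 0.30 (adjusted p = 0.0212) and -0.28 (adjusted p = 0.0389).

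Tapbp, which encodes tapasin, had centred log2 values of -0.04, 0.01 and 0.00 in experiment 1 and -0.01, 0.14 and 0.01 in experiment 2. It had the same order as B2m in both experiments, with smaller differences. Its difference between Dox and untreated was 0.10 (95% CI -0.02 to 0.23, adjusted p = 0.346) and that between Dox+4μ8c and untreated 0.04 (95% CI -0.09 to 0.16, adjusted p = 0.789).

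Among the signalling members, STAT2 is part of the complex that binds the ISRE. Centred log2 values of Stat2 were 0.00, 0.01 and -0.02 in experiment 1 and 0.05, 0.13 and -0.06 in experiment 2. Dox was the highest and Dox+4μ8c the lowest in each, with a difference of -0.11 between them (95% CI -0.24 to 0.02, adjusted p = 0.535). The 2 probesets of Stat2 gave 0.09 and 0.00 for Dox against untreated.

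IRF1 and IRF7 are transcription factors, the first induced by interferon-γ and the second the amplifier of type I interferon production. The values of Irf1 were -0.03, 0.00 and 0.00 in experiment 1 and -0.05, 0.06 and 0.05 in experiment 2. Both treated arrays lay above untreated in each experiment, but the differences of 0.07 with Dox (95% CI -0.05 to 0.18, adjusted p = 0.476) and 0.06 with Dox+4μ8c (95% CI -0.06 to 0.18, adjusted p = 0.614) did not pass. Irf7 went the other way. Its values were 0.27, -0.02 and 0.00 in experiment 1 and 0.05, 0.05 and -0.07 in experiment 2, with the high untreated array of experiment 1 apart from the others. Irf7 differed from untreated by -0.15 with Dox (95% CI -0.33 to 0.03, adjusted p = 0.333). With Dox+4μ8c the difference was -0.20 (95% CI -0.37 to -0.02, unadjusted p = 0.0358, adjusted p = 0.275). It was thus below untreated in both experiments without passing the test over all genes.

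Isg15 encodes a ubiquitin-like protein that is conjugated to other proteins and is among the genes most strongly raised by type I interferon in many cells. Here its values were exactly 0 on all 3 arrays of experiment 1, and -0.11, 0.12 and 0.11 in experiment 2, where both treated arrays lay above untreated by about the same amount. The differences from untreated were 0.11 with Dox (95% CI -0.05 to 0.28, adjusted p = 0.410) and 0.11 with Dox+4μ8c (95% CI -0.06 to 0.27, adjusted p = 0.523). Adding 4μ8c to Dox gave a difference of -0.0049, whose sign changed when each array was centred on its median (0.0024).

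**Figure D1:**
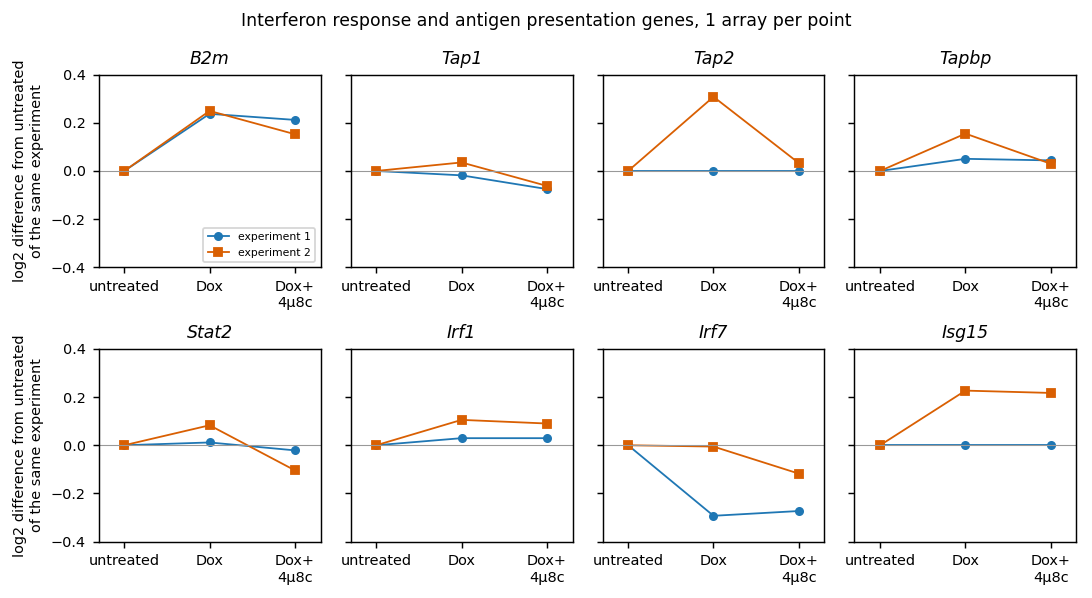
Each point is 1 array. The vertical axis is the log2 difference from the untreated array of the same experiment, so that untreated is 0, for untreated, Dox and Dox+4μ8c in experiment 1 (circles) and experiment 2 (squares). B2m shows differences of 0.24 and 0.25 with Dox in the 2 experiments, whereas Tap2 and Isg15 are at 0 throughout experiment 1 and Irf7 lies at or below untreated.

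As a group the 8 members moved little. None reached 1.5 fold in any comparison. Of all genes 1.14% did with Dox, 0.46% with Dox+4μ8c against untreated and 0.397% with Dox+4μ8c against Dox. The 95% CI of every member lay within 1.5 fold in all 3 comparisons (the widest limits were -0.37 for Irf7 and 0.36 for B2m). For Tap2 and Isg15 the fit took the unexplained ties of experiment 1 as data, so their means and intervals do not bound the change. In experiment 2 alone their differences with Dox were 0.31 and 0.23. With Dox, 1 of 8 was called higher and 0 lower, against 4.42% and 2.01% of all genes. The median difference of the 8 was 0.09, against 0.01 over all genes. It was 0.0058 in experiment 1 and 0.13 in experiment 2, that is on Dox replicate 2, the array that stood apart. In all, 4 of 8 were higher in both experiments, against 26.6% of all genes. On Dox replicate 2 alone 7 of 8 lay above untreated, as did 58.0% of all genes on that array, and in experiment 1 this was 4 of 8 against 34.9%.

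With Dox+4μ8c against untreated no member passed, where 1.17% of all genes were called higher and 1.13% lower. At an unadjusted p under 0.05 there were 2 of 8, against 1943 of all 12603 genes. The median difference of the members was 0.03, with 5 above 0 and 3 below, where 49.0% of all genes lay above and 50.9% below. With Dox+4μ8c against Dox again no member passed, where 0.175% of all genes were called higher and 1.61% lower. At an unadjusted p under 0.05 there were 0 of 8, against 1415 of all 12603 genes. All 8 mean differences between Dox+4μ8c and Dox were below 0 (that of Isg15 changed sign with arrays centred on their medians), as were 57.9% of all genes. In experiment 2 all 8 were lower, as were 61.1% of all genes. In experiment 1, 4 were lower (36.2% of all genes were), 3 tied and Irf7 was higher by 0.02. Both comparisons use the Dox+4μ8c arrays, and the comparison with Dox uses the same Dox arrays, Dox replicate 2 among them, as that of Dox with untreated.

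**Figure D2:**
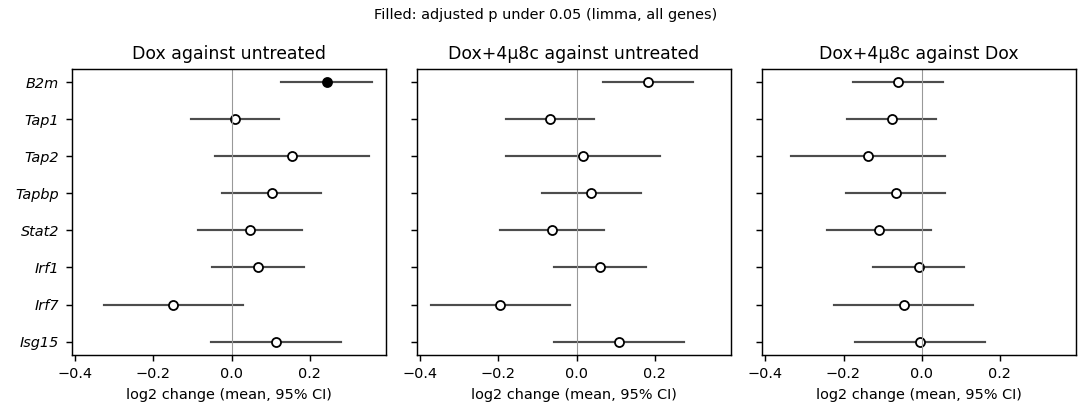
Mean log2 change of each member in the 3 comparisons with its 95% CI from limma (horizontal axis), 2 experiments per value. Filled circles passed an adjusted p under 0.05, which B2m did with Dox (0.24). The intervals of the other members include 0 except for B2m and Irf7 with Dox+4μ8c against untreated.

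The wider pathway was read through 7 lists of 189 genes, of which 116 were measured. With Dox, 16 of the 116 were called higher (13.8%, against 4.42% of all genes) and 1 lower. The median of the 116 was 0.06, against 0.01 over all genes. The 6 measured peptide-loading chaperones held 4 of the 16. The lists were written with earlier results of these data known, so these shares are not an independent comparison with all genes. Of these 17 calls, 8 held with each of the 6 arrays left out in turn and 5 held without the replicate block. Without the block Tpp2 lay at the threshold, with an adjusted p that rounds to 0.05, and it was not counted as held. The lists differed from each other, and the values of all genes that passed are given below by list.

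Receptors, kinases and transcription factors of interferon signalling contained 19 measured genes, of which 5.26% were called higher with Dox (4.42% of all genes). The median of the 19 was -0.03. Of these, Ifnlr1, the receptor chain for interferon-λ, was called higher at 0.27 (adjusted p = 0.0482), a call that held in only 1 of the 6 fits with an array left out (without Dox replicate 1). It was at 0.11 with Dox+4μ8c (adjusted p = 0.426). Stat3, a transducer of many cytokines, was at -0.18 (adjusted p = 0.0971) and Ifngr2, a chain of the interferon-γ receptor, at -0.16 (adjusted p = 0.127) with Dox. The genes for interferon-β and interferon-γ had no probeset named for them here.

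Of 11 measured sensors and adaptors of nucleic acid sensing, 1 was called higher with Dox (9.09%, against 4.42% of all genes). A single call in a short list was not read as a result about that list. Ticam1 encodes TRIF, an adaptor of Toll-like receptors. It was higher with Dox, at 0.39 and 0.34 in experiments 1 and 2 (mean 0.36, adjusted p = 0.0186), and was back at untreated values with 4μ8c (-0.02, adjusted p = 0.892). The difference between Dox+4μ8c and Dox was -0.39 (SE 0.06, adjusted p = 0.0348). The rise was not called without untreated replicate 1 or 2, and the difference between Dox+4μ8c and Dox was not called without Dox replicate 2 or either Dox+4μ8c array (adjusted p up to 0.115 and 0.468). Sting1, which signals from the ER membrane when cytosolic DNA is sensed, had the same shape below the threshold. It was at 0.26 with Dox (adjusted p = 0.105) and -0.33 between Dox+4μ8c and Dox (adjusted p = 0.108). Nlrx1, a mitochondrial regulator of this signalling, was at 0.00 with Dox.

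Interferon-stimulated effectors were the largest list, with 43 measured genes and a median of 0.09 with Dox. Of the 43, 6 were called higher (13.95%, against 4.42% of all genes) and 1 lower (2.33%, against 2.01%). The largest difference was that of Ifi27l2b at 2.00 with Dox and 1.93 with Dox+4μ8c (adjusted p = 8.58e-05 and 0.00011), a gene of the ISG12 family. Neither call held without the replicate block (adjusted p = 0.0913 and 0.165), a fit that counts offsets between the experiments as noise. Within experiments 1 and 2 the differences were 1.98 and 2.02 with Dox, and 1.97 and 1.88 with Dox+4μ8c. Isg20, an exonuclease that degrades RNA, was higher by 0.69 (SE 0.07, adjusted p = 0.00485). Its centred values were -0.16, 0.55 and 0.00 in experiment 1 and 0.05, 0.72 and -0.05 in experiment 2, so that in each experiment the Dox array was high and the other 2 were low. With 4μ8c Isg20 was at 0.03 from untreated (adjusted p = 0.885) and differed from Dox by -0.66 (SE 0.07, adjusted p = 0.0179). The rise with Dox held with every array left out in turn, but the difference from Dox was lost without either Dox+4μ8c array (adjusted p up to 0.274).

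Bst2, or tetherin, a membrane protein that holds back budding virus, was higher with Dox by 0.60 (SE 0.06, adjusted p = 0.00408). It was at 0.28 with Dox+4μ8c (adjusted p = 0.0800), a difference of -0.32 from Dox (adjusted p = 0.0611). Ifi44l was higher in both treated groups, by 0.50 (adjusted p = 0.00334) and 0.32 (adjusted p = 0.0281), with 0.50 and 0.51 for Dox in the 2 experiments. The rises of Bst2 and Ifi44l with Dox held in all 6 fits with an array left out, whereas that of Ifi44l with Dox+4μ8c held in 2. Casp4, an inflammatory caspase, was higher with Dox by 0.45 (adjusted p = 0.0219) and Igtp, an immunity-related GTPase, by 0.22 (adjusted p = 0.0497). Casp4 was lost without untreated replicate 1 or 2 and Igtp in all 6 such fits (adjusted p from 0.0746 to 0.199). Serping1, the C1 inhibitor of complement, was called lower, with a difference of -0.36 (adjusted p = 0.0184), and was lost without untreated replicate 1 or 2.

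With Dox+4μ8c, 3 of the 43 genes of this list were called lower than in untreated cells (6.98%, against 1.13% of all genes). Another 2 were called higher (4.65%, against 1.17%). The median of the 43 was 0.02, with 23 above 0 and 20 below. Those called lower were the chemokines Cxcl10 at -0.39 (adjusted p = 0.0209) and Cxcl11 at -0.31 (adjusted p = 0.0476), and Ube2l6, the conjugating enzyme for ISG15, at -0.29 (adjusted p = 0.0453). None of the 3 passed with Dox alone, where they were at -0.16, 0.14 and -0.03. Between Dox+4μ8c and Dox, Cxcl11 differed by -0.45 (SE 0.05, adjusted p = 0.0205), with values of 0.00, 0.13 and -0.38 in experiment 1 and 0.12, 0.28 and -0.12 in experiment 2. Each of the 3 calls against untreated held in 2 of the 6 fits with an array left out, being lost without either untreated or either Dox+4μ8c array. That of Cxcl11 against Dox was lost without either Dox+4μ8c array.

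The heavy chains that pair with β2-microglobulin are encoded by the rat RT1 genes. The list of class I chains and their regulator held 15 measured genes, with a median of 0.17 with Dox. The median was 0.08 in experiment 1 and 0.28 on Dox replicate 2, the array that stood apart. Of the 15, 10 were higher in both experiments, against 26.6% of all genes, and none was lower in both, against 24.8%. In experiment 1, 2 of the 15 tied with untreated, whereas 25.2% of all genes did and could not count in either direction. Only RT1-M3-1 was called (6.67% of the list, against 4.42% of all genes called higher). RT1-M3-1, a class Ib chain of the family that shows N-formylated peptides, was higher by 0.82 (SE 0.06, adjusted p = 0.0018). Its centred values were -0.23, 0.50 and 0.00 in experiment 1 and -0.13, 0.77 and 0.13 in experiment 2, with the Dox array far above the others in each. With 4μ8c it was at 0.24 from untreated (adjusted p = 0.102) and differed from Dox by -0.57 (SE 0.06, adjusted p = 0.0157). The rise held with every array left out in turn and without the replicate block (adjusted p = 0.0258). The difference from Dox was lost without either Dox+4μ8c array (adjusted p up to 0.298) and without the block (adjusted p = 0.0712).

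The other 14 class I genes of the list did not pass, with differences from -0.02 for Fcgrt and RT1-T24-3 to 0.47 for Cd1d1. Mr1 was at 0.01, Hfe at 0.05 and RT1-CE12 at 0.10. The values with Dox were 0.21 for RT1-CE16 (adjusted p = 0.0582), 0.22 for RT1-S3 (adjusted p = 0.0750), 0.17 for RT1-N3 (adjusted p = 0.234) and 0.15 for RT1-A3 (adjusted p = 0.362). RT1-A3 and RT1-N3 were at 0.01 and 0.07 in experiment 1 and at 0.29 and 0.27 in experiment 2. With Dox+4μ8c against untreated, RT1-N3 was at 0.30 (adjusted p = 0.0929) and RT1-A3 at 0.20 (adjusted p = 0.315), each mean above that with Dox. Of the 15, 6 mean differences between Dox+4μ8c and Dox were above 0 and 9 below, where 57.9% of all genes lay below. RT1-N3 and Cd1d1 were named by their p-values, and the other uncalled genes of this list were chosen after their values were seen. Some RT1 genes are close copies whose probes can share signal, so the genes of this list cannot be taken as independent of one another. Nlrc5, the class I transactivator, was at 0.14 with Dox (adjusted p = 0.347). Cd1d1, a class I-like chain that shows lipids and also pairs with β2-microglobulin, was at 0.47 with Dox (adjusted p = 0.0668) and -0.04 with Dox+4μ8c, a difference of -0.51 (adjusted p = 0.108).

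Peptide supply and trimming held 13 measured genes, of which 2 were called higher with Dox (15.38%, against 4.42% of all genes) and none lower. Psmb8, a catalytic subunit that interferon-γ swaps into the proteasome, was higher by 0.32 (adjusted p = 0.0345), and Tpp2, a cytosolic peptidase, by 0.35 (adjusted p = 0.0138). Psmb10, another such subunit, was at 0.24 (adjusted p = 0.131). With Dox+4μ8c the 3 were at 0.08, 0.23 and 0.01, without passing. Psmb8 held without Dox replicate 1 only and Tpp2 without either Dox array only, among the fits with an array left out (adjusted p up to 0.169 and 0.0994).

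Peptide loading in the ER also needs general chaperones. Of 6 measured, 4 (66.67%) were called higher with Dox and the same 4 with Dox+4μ8c, against 4.42% and 1.17% of all genes. Each was higher by more than B2m. The other 2 were Uggt1 at 0.40 with Dox (adjusted p = 0.105) and Ganab at 0.05 (adjusted p = 0.759). Pdia3 (ERp57), the oxidoreductase bound to tapasin, was at 0.71 with Dox (SE 0.06, adjusted p = 0.00309) and 0.48 with Dox+4μ8c (adjusted p = 0.0222). Calr, the lectin chaperone calreticulin of the loading complex, was at 0.57 (adjusted p = 0.00431) and 0.39 (adjusted p = 0.0301). Canx, calnexin, which binds new heavy chains, was at 0.53 (adjusted p = 0.0177) and 0.48 (adjusted p = 0.0477). Hspa5 (BiP), listed as a general chaperone of new chains and no part of the loading complex, was at 0.70 (adjusted p = 0.00926) and 0.66 (adjusted p = 0.0251). With Dox these calls held in all 6 fits with an array left out for Pdia3, Calr and Hspa5. Canx was lost without untreated replicate 1 (adjusted p = 0.0605). With Dox+4μ8c all 4 were lost when untreated replicate 1 or a Dox+4μ8c array was left out, and Calr and Pdia3 also without untreated replicate 2 (adjusted p up to 0.338). None passed without the replicate block in either comparison (adjusted p from 0.0754 to 0.231). None of the 4 differed between Dox+4μ8c and Dox past the test, with differences from -0.23 for Pdia3 to -0.04 for Hspa5.

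The promoter windows of the chaperones differ from those of the members in the motif they hold. The ER stress response element (ERSE, the CCAAT and CCACG boxes 9 bases apart) stood in 3 of the 5 chaperones with a window, in none of the 7 members and in 0.07% of all windows. No ISRE was found in those 5. The 3 are printed because they are the counterpart of the ISREs above, with the ERSE in capitals (reverse complemented in Calr).
Calr, chr19:40213130-40213159, plus strand: caacgCGTGGTCGACCCTGATTGGcccagg
Canx, chr10:35158063-35158092, minus strand: cttgtCCAATCATCACGCTCCACGaagaat
Hspa5, chr3:38452968-38452997, plus strand: gttcaCCAATCGGAGGCCTCCACGacgggg
The UPRE core TGACGTG was in 1.81% of all windows, in Hspa5 alone among the 5 chaperones and in none of the members. These are matches of letters only.

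In the class II pathway 1 of 9 measured genes was called higher with Dox (11.11%, against 4.42% of all genes). It was Cd40, a receptor for T-cell help, at 0.36 (adjusted p = 0.0234) and at 0.30 with Dox+4μ8c (adjusted p = 0.0707). The call held without Dox replicate 1 or 2 only, among the fits with an array left out. Cd74, the invariant chain, was at 0.20 with Dox (adjusted p = 0.308) and RT1-Db1, a class II chain, at -0.09 (adjusted p = 0.398). Among the β-cell markers, by contrast, 4 of 10 measured were called lower with Dox and none higher, against 2.01% and 4.42% of all genes. They were Mafa at -0.56, Nkx2-2 at -0.52, Pcsk2 at -0.50 and Iapp at -0.25. Among the fits with an array left out, Nkx2-2 held in all 6, Mafa was lost without untreated replicate 1, Pcsk2 without untreated replicate 2, and Iapp held in 1 of 6 (without Dox replicate 1). Between Dox+4μ8c and Dox all 10 were higher in both experiments, against 19.0% of all genes. In experiment 1, 0 of the 10 tied, whereas 27.8% of all genes did and could not count as higher. Mafa was called higher by 0.62 (adjusted p = 0.0189), a call lost without either Dox+4μ8c array. The part of the β-cell markers in the results on the members was not tested.

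**Figure D3:**
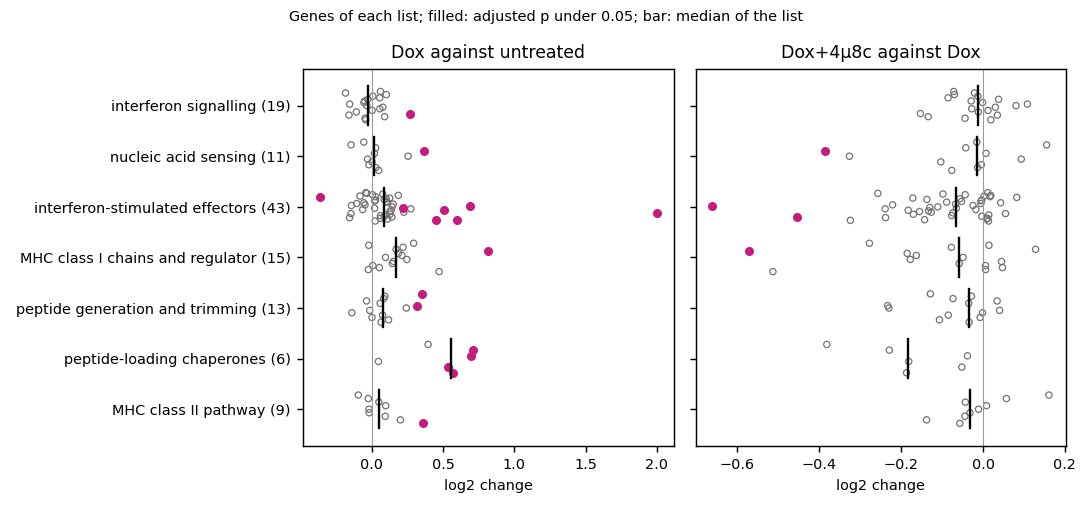
Log2 change (horizontal axis) of each measured gene in the 7 lists, with the number measured in brackets, for Dox against untreated and for Dox+4μ8c against Dox. Filled points passed an adjusted p under 0.05 and bars are list medians. With Dox the medians run from -0.03 (interferon signalling) to 0.55 (peptide-loading chaperones).

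With Dox+4μ8c against untreated, 6 of the 116 genes were called higher (5.17%, against 1.17% of all genes) and 3 lower (2.59%, against 1.13%). The 6 were the 4 chaperones, Ifi27l2b and Ifi44l. Of the 9, the call of Ifi27l2b alone held with each array left out, and none held without the replicate block. With Dox+4μ8c against Dox, 4 of the 116 were called lower (3.45%, against 1.61% of all genes) and none higher. At an unadjusted p under 0.05 there were 29 of the 116 in either direction, against 1415 of all 12603 genes. The 4 called lower were Isg20, RT1-M3-1, Cxcl11 and Ticam1. With each array left out in turn none of the 4 held throughout.

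**Figure D4:**
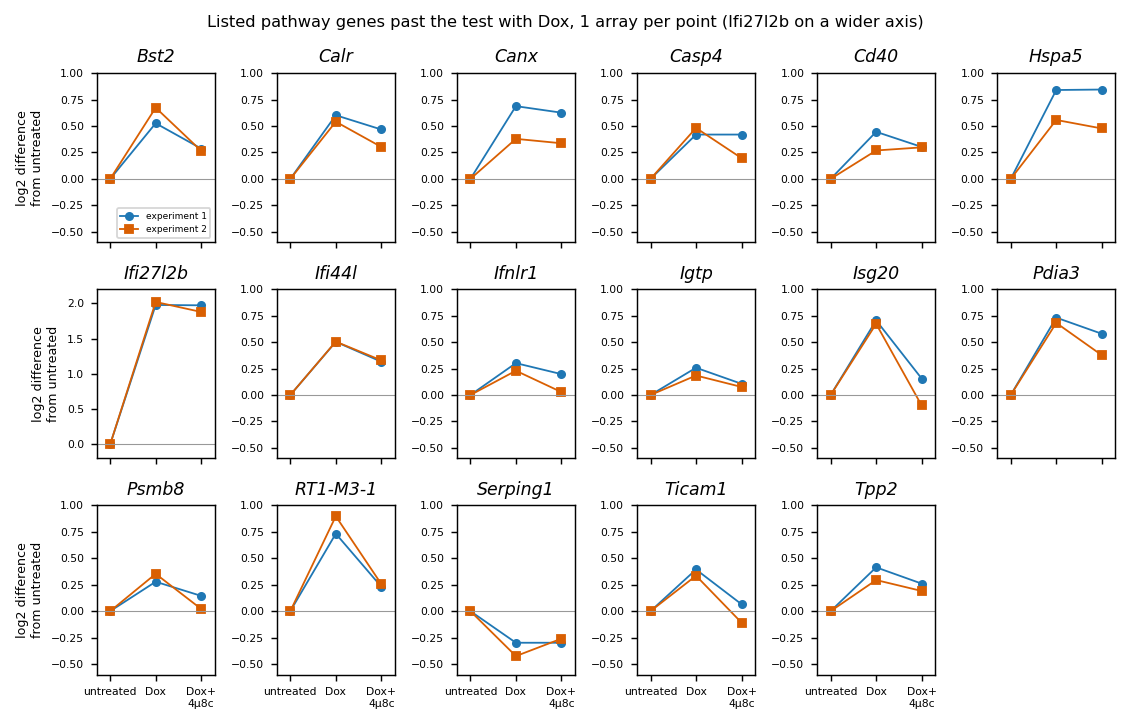
Each point is 1 array, as the log2 difference from untreated of the same experiment, for the 17 listed genes that passed the test with Dox. Isg20, Ticam1 and RT1-M3-1 fall back with Dox+4μ8c in both experiments, whereas Ifi27l2b stays near 2 (1.97 and 1.88).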

How the data were processed

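From 200 ng of total RNA per sample, transcripts were measured on rat Affymetrix arrays, 6 in all (3 groups, 2 experiments). The deposited values are log2 signals from RMA (per the submitters' processing notes, version not given in the sources used here), centred per probeset within an experiment. The median over 3 arrays was 0 in 100% of probesets of experiment 1 but in 0.836% of experiment 2. How experiment 2 was centred is not given in the sources used here. The number of arrays limits the precision. Replicate numbers in the labels name the experiment, since the study's methods give 2 independent experiments. In experiment 1 the median of 0 shows that same-numbered arrays were processed as a set. Deviations from the group means correlated between groups at r = 0.03, 0.10 and 0.03 over genes, which are not independent replicates, and the centring leaves this check uninformative. p-values measure the spread between these samples only.

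Of 25476 probesets, 17978 had 1 symbol (52 were controls, 7068 had none, 378 several) and were averaged per symbol, with no filter. The test was limma (version 3.58.1, R 4.3.3) with lmFit and eBayes (replicate number as a fixed block, 2 residual and 4.25 prior degrees of freedom, Benjamini-Hochberg over 12603 genes of a contrast, threshold 0.05, two-sided). The study's methods name no array test. Tables, motifs and figures used Python 3.11.15, pandas 2.3.3 and matplotlib 3.10.9. The limma fit was also run on simulated data, which had neither the centring nor the ties of these values. Members and lists were chosen with earlier results of these data known. Named genes were all members, each listed gene past the test in a contrast, and the 3 with the smallest p per list. Alternatives were no replicate block, other array scaling, probeset summary, variance prior, an SD filter, the 2 groups alone, single probesets, averaged linear folds (members) and each array left out. Coordinates and sequences are from RefSeq, GRCr8. The inhibitor without Dox was not analysed here.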

Additional observations from a re-analysis of the deposited data

How the results depend on the processing

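The 1 member called with Dox became 0 without the replicate block, with genes of low SD left out, with the 2 compared groups alone and with probesets tested singly, and ranged from 0 to 2 with an array left out. It was 2 without Dox replicate 1, where Tap2 was added, and 0 without any other array. The 0 members called with Dox+4μ8c against untreated stayed at 0 in all settings, and the 0 against Dox became 1 (Tap2) without Dox replicate 1 (range 0 to 1). Among the pathway genes, the 17 called with Dox became 6 without the replicate block and 11 with single probesets, and ranged from 8 (without untreated replicate 1) to 29 (without Dox replicate 1). The 9 called with Dox+4μ8c against untreated became 0 without the block, 17 with the 2 groups alone and 1 with single probesets (range 1 to 17; 17 without either Dox array, 1 when untreated replicate 1 or a Dox+4μ8c array was left out). The 4 called between Dox+4μ8c and Dox became 2 without the block, 8 with the SD filter and 0 with single probesets (range 0 to 14; 14 without Dox replicate 1, 0 without either Dox+4μ8c array). The cause was not tested. A group left with 1 array takes its spread from the others. The fit without the block counts offsets between the experiments as noise, so its losses do not show a failure to repeat. Counted from rounded adjusted p, 5 of the 17 pathway calls with Dox held in that fit, with Tpp2 at 0.05 left out.

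Signs changed only for differences that did not pass. With arrays centred on their medians these were Nlrx1 with Dox (-0.0056) and Isg15 between Dox+4μ8c and Dox (0.0024). With an array left out, the ranges that cross 0 were, for Dox, Tap1 -0.015 to 0.032, Stat2 -0.0092 to 0.104, Cd4 -0.039 to 0.196 and Nlrx1 -0.0165 to 0.0193. For Dox+4μ8c against untreated they were Tap2 -0.0688 to 0.101, Isg15 -0.0024 to 0.219, Cd1d1 -0.205 to 0.124, Cd74 -0.103 to 0.229, Cd8a -0.0177 to 0.264, Isg20 -0.0906 to 0.148, Kdr -0.201 to 0.163, Mafa -0.0198 to 0.133, Psmb10 -0.0549 to 0.0791, RT1-Db1 -0.001 to 0.134, Sting1 -0.191 to 0.048 and Ticam1 -0.094 to 0.0506. For Dox+4μ8c against Dox they were Tap2 -0.283 to 0.0082, Irf1 -0.0303 to 0.0152, Irf7 -0.151 to 0.0586, Isg15 -0.064 to 0.0542, Canx -0.134 to 0.0305, Cd4 -0.0392 to 0.195, Cd40 -0.144 to 0.0305, Cd8a -0.277 to 0.0409, Hspa5 -0.151 to 0.0753, Iapp -0.0154 to 0.0496 and Stat3 -0.0576 to 0.0156. Of 324 member values under alternatives, 300 were labelled the same. For 24 of these, the averaged linear folds, this meant the same sign and a close estimate, since they were not tested. For the others it meant the same sign and side of the threshold.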
